A study of Mus musculus with 23 samples.

Results

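Type I interferon antiviral response genes are described here in the proximal small intestine of young mice. The group consists of 35 genes named by symbol, each of which was found in the count tables among 55416 gene rows and passed the filter on low counts. RNA-seq was done on mucosal scrapings from C57BL/6JRccHsd mice labelled female, 1 library per mouse. Weaned mice were divided by body weight at 21 days of age and kept for 3 weeks on pellets of which galactose gave 16% of the energy and glucose another 16% (GAL42, n = 12), or on pellets of which glucose alone gave 32% (GLU42, n = 11). The pellets were alike in all else, and tissue was taken at 42 days of age. The labels name no genetic change and no infection in either group, and they give neither cage nor litter.

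Interferons are secreted when a cell senses foreign nucleic acid. Type I interferons act on a receptor found on nearly all cells, and type III (lambda) interferons act mainly on epithelium, including that of the gut. Both receptors lead to a complex with STAT2 and IRF9 that binds the interferon-stimulated response element in DNA and switches on a shared set of antiviral genes. IRF7, itself induced, amplifies the response. In the healthy intestine these genes are known to be active at a low level that depends on the microbiota.

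The response element was looked for because these genes share a regulator, and 5 promoters that hold it are shown. RefSeq promoter windows of GRCm38.p6, from 250 bases before to 50 after the transcription start, were found for 26 of the 35 genes. The motif searched was GAAANNGAAA, 2 GAAA blocks with 2 bases between them, on both strands (TTTCNNTTTC on the other), and overlapping matches were counted. It was found in 13 of the 26 windows, and in 3.99% of the 27025 genes that have a window of this length. More than 1 match was found in 6 of the 26, against 0.266% of all genes. Bases that belong to a match are in capitals.
Bst2: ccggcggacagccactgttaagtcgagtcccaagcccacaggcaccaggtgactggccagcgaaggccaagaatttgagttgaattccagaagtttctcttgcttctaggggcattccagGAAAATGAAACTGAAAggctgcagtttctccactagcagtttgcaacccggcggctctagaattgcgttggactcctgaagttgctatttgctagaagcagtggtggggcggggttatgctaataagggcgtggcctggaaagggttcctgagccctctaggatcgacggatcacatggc
Isg15: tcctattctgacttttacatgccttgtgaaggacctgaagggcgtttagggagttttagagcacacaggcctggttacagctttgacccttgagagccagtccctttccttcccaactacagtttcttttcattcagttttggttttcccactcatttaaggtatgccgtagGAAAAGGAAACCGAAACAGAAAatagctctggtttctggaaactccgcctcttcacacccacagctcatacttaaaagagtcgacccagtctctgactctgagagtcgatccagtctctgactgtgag
Ifit1: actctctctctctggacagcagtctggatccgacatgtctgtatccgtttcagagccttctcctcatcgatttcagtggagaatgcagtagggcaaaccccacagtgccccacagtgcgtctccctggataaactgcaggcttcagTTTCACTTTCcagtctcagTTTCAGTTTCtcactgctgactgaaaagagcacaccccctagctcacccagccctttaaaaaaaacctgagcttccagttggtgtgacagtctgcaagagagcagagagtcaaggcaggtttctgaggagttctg
Oas1a: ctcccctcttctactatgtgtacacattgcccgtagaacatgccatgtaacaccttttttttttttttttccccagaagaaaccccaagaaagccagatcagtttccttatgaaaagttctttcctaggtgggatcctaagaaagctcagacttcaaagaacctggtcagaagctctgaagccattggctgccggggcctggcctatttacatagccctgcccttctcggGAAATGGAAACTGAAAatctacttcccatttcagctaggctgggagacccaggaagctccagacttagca
Oas1g: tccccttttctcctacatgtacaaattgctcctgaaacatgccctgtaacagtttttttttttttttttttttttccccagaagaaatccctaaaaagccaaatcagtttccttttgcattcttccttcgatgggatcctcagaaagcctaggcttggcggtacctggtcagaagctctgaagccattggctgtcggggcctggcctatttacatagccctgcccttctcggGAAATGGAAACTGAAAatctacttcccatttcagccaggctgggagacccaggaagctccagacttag
The windows lie at chr8:71537423-71537722 (Bst2, minus strand), chr4:156200769-156201068 (Isg15, minus), chr19:34640639-34640938 (Ifit1, plus), chr5:120907476-120907775 (Oas1a, minus) and chr5:120887564-120887863 (Oas1g, minus). The first match begins 130 bases before the start in Bst2, 78 in Isg15, 104 in Ifit1, 20 in Oas1a and 18 in Oas1g. Isg15 holds 3 overlapping matches in a row. The windows of the neighbouring copies Oas1a and Oas1g are 88.8% identical over their aligned bases, and both hold the same run of 2 overlapping matches. Of 60 further interferon-stimulated genes on a separate list, 29 hold the motif (48.3%). The window of Irf7 holds none, which says only that these letters are not in it. No transcription factor binding was measured.

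Libraries held 15382583 to 17174721 counts in genes, and the lowest count of any of the 35 genes in any library was 20 (Ifi44). Galactose replicate 12, labelled female, held 225 counts of 4 Y-linked genes, where every other library held at most 1, and 4 counts of Xist, where the others held 778 to 2351. Galactose replicate 2 held 557.9 CPM (counts scaled by library size to the usual CPM unit) of pancreatic acinar transcripts in sum, where every other library held at most 3.96 CPM. Enterocyte markers were abundant in every library (61309 to 96620 CPM in sum). Without galactose replicates 2 and 12 together, all 35 interferon genes still had a higher level on galactose, with a median log2 difference of 0.47. Their count with an unadjusted p under 0.05 (edgeR) was then 19, against 25 with all libraries. Of all genes 8.34% had such a p and a higher level on galactose without those 2 libraries.

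All 35 interferon genes had a higher fitted level on galactose than on glucose, by a median log2 difference of 0.48 (range 0.07 to 0.95). The tetherin gene Bst2, the 2-5A synthetases Oas1a and Oas1g, and Ifi35 had the smallest p-values. None passed the test: edgeR's quasi-likelihood test with Benjamini-Hochberg adjustment called 0 of the 35 and 0 of 13405 genes tested, which is 0%. The smallest adjusted p among the 35 was 0.135. At an unadjusted p under 0.05 there were 25 of the 35, all higher on galactose, against 14.4% of all genes tested in either direction and 8.63% in that direction. The 35 genes were chosen with earlier results of these data known, and they vary together from mouse to mouse. The counts are thus a description and not 35 separate results. Over all genes the median log2 difference was -0.0017, and 49.5% were higher on galactose. DESeq2 called 2 of the 35 (Bst2 and Ifi35) and 0.763% of all genes, limma-voom with sample quality weights called 6 and 1.25%, and limma-voom called 0 of both. Without galactose replicate 7, edgeR called 3 of the 35 (Oas1g, Bst2 and Ifi35) and 1.64% of all genes.

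**Figure D1:**
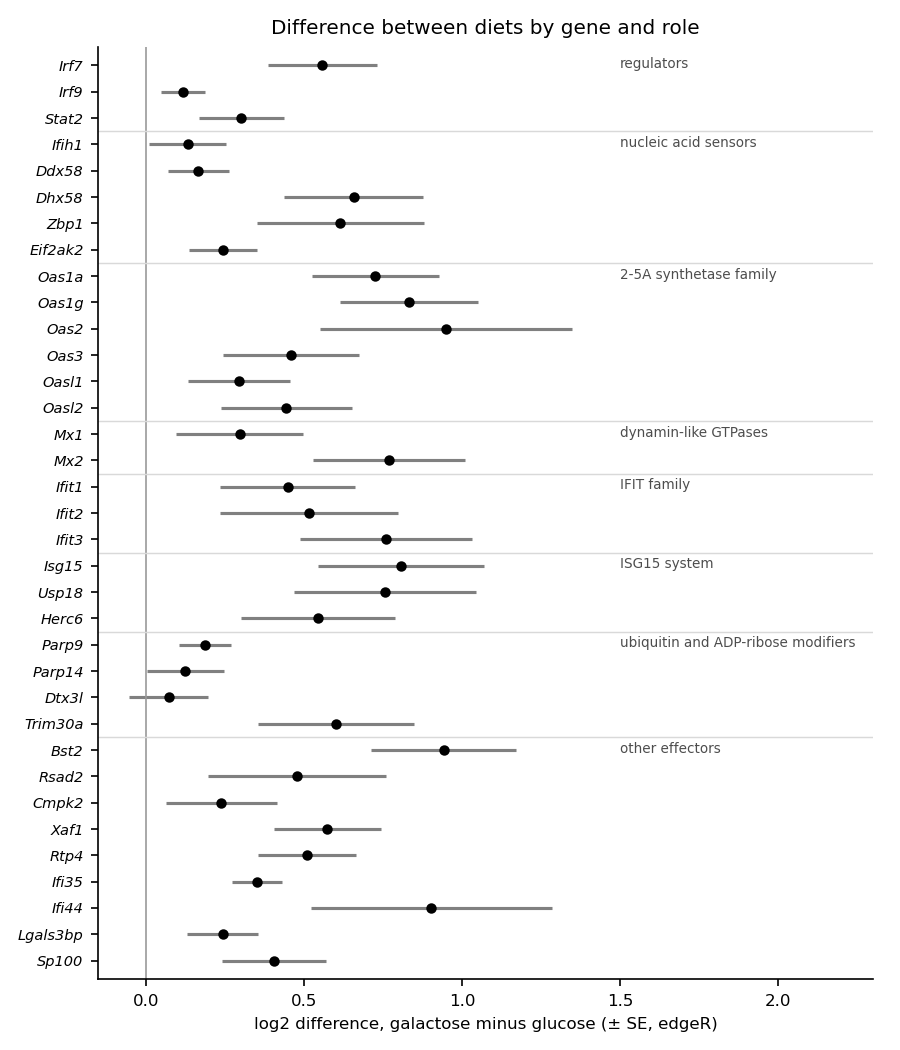
Log2 difference between the diets (galactose minus glucose, horizontal axis, with its standard error from edgeR) for each of the 35 genes, grouped by role. Every point lies right of 0, from 0.07 for Dtx3l to 0.95 for Oas2, and the widest errors are those of Oas2 and Ifi44.

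The size of this difference depended on single mice. Without galactose replicate 4 the median over the 35 genes was 0.32, 34 were higher and 12 had an unadjusted p under 0.05, against 8.31% of all genes in that direction. Without glucose replicate 1 that last count was 16, against 7.12% of all genes in that direction. In a separate fit with 6 surrogate variables as covariates 25 of the 35 were higher and the median was 0.05. In that fit 1 of the 35 had an unadjusted p under 0.05. Of all genes 7.41% did in either direction, and 3.84% did with a higher level on galactose. Those variables together held 86.8% of the variance between mice, within diets, of the mean over the 35 genes. No reference share for other genes is given here. The variables were estimated from the same expression values, the 35 genes among them, so they can take up variation that these genes share. The smaller differences in that fit can thus not be read as a test of diet.

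The interferon genes themselves were at or near 0. Of 20 genes for type I and III interferons 0 passed the filter on low counts, and 15 had 0 counts in all 23 libraries, the type I gene Ifnb1 among them. In a single library of the shallowest depth a count of 0 allows up to 3 counts in 15382583. That bound covers sampling alone: reads that align to several related genes may be counted for none of them. The lambda genes Ifnl2 and Ifnl3 are near-identical copies, between which reads may be split or counted for neither. They had 77 counts together over the 12 galactose libraries and 49 over the 11 glucose libraries. The receptor chains were expressed on both diets, and none had an unadjusted p under 0.05. Ifnar1 had a log2 difference of -0.06 ± 0.07 (SE), Ifnar2 0.03 ± 0.07, the lambda receptor chain Ifnlr1 -0.09 ± 0.08 and its partner Il10rb 0.02 ± 0.06. In the list of receptors and signalling genes, 13 tested genes are not among the 35. Of these 8 were higher and 5 lower (median 0.03), and 0 had an unadjusted p under 0.05. The kinases Jak1 and Tyk2 both stood at -0.07. The feedback inhibitor Socs1 stood at 0.30 ± 0.18 and the transcription factor Irf1 at 0.10 ± 0.07 (0.06 without galactose replicate 2).

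Of the 3 regulators, Irf7 differed most. It had 286, 474 and 837 CPM on galactose (lowest, median, highest) and 182, 334 and 509 CPM on glucose. The ranges overlapped: 5 galactose libraries lay above the highest glucose library and 3 glucose libraries below the lowest galactose library. Its mean was 480.4 ± 147 CPM on galactose and 326 ± 105 CPM on glucose (SD), a log2 difference of 0.56 ± 0.17 (adjusted p = 0.165, edgeR). Stat2, a subunit of the interferon-activated complex, had a log2 difference of 0.30 ± 0.14, and 0.19 without galactose replicate 4. Irf9, the subunit that reads the response element, had 67.3 ± 7.55 CPM against 62.0 ± 7.64 CPM, a difference of 0.12 ± 0.07. Irf7 shares exon bases with Phrf1 on the opposite strand, and Irf9 with Rnf31 on the same strand, in GENCODE M21. The strand setting of the counting is unknown, so reads of such neighbours may not be parted, and the same holds for Herc6 with Gm45193 and for Ifi35 with Gm11626. Rtp4, Parp14 and Sp100 also share exon bases with another gene on the same strand. Dhx58, Eif2ak2, Usp18 and Oasl1 do so on the opposite strand.

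Among the sensors of foreign nucleic acid, Dhx58 and Zbp1 had the larger differences. Dhx58 (LGP2, a helicase that tunes RNA sensing) had 25.6, 47.6 and 117 CPM on galactose and 12.3, 30.8 and 48.0 CPM on glucose. In 6 galactose libraries it exceeded every glucose library. Its log2 difference was 0.66 ± 0.22 (adjusted p = 0.192, edgeR). Zbp1, which binds Z-form nucleic acid and can start cell death, had 58.1, 105 and 245 CPM on galactose and 13.6, 69.1 and 150.1 CPM on glucose, a difference of 0.61 ± 0.26. Its lowest values were all on glucose, where 3 libraries lay below every galactose library. The RNA helicases Ddx58 (RIG-I) and Ifih1 (MDA5) had differences of 0.17 ± 0.10 and 0.13 ± 0.12, and 0.10 and 0.05 without galactose replicate 4. Eif2ak2 (PKR), the kinase that halts translation on double-stranded RNA, had 0.25 ± 0.11.

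Active enzymes of the 2-5A synthetase family make the signal that activates RNase L. The 6 genes placed in this family here, active or not, had a median log2 difference of 0.59. Oas1a had 66.8, 109 and 195 CPM on galactose and 24.5, 66.7 and 115 CPM on glucose. All 12 galactose libraries lay above the glucose median, and 6 of the glucose libraries lay below every galactose library. The log2 difference was 0.73 ± 0.20 (adjusted p = 0.138, edgeR). Its neighbour Oas1g had 34.4, 63.2 and 109 CPM against 10.6, 30.7 and 60.1 CPM, with 7 galactose libraries above the highest glucose library and a difference of 0.83 ± 0.22. Reads that align to both copies may be counted for neither. Oas2 had the largest fitted difference of the 35 genes, 0.95 ± 0.40, and its range on galactose was 14.8-fold, from 11.6 to 173 CPM. Without galactose replicate 4 its difference was 0.47. Oas3 (0.46 ± 0.22), Oasl2 (0.44 ± 0.21) and Oasl1 (0.30 ± 0.16), the last a repressor of Irf7 translation, stood lower, and Oasl1 stood at 0.19 without that library.

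The dynamin-like GTPase genes Mx1 and Mx2 were among the 3 weakest expressed of the 35. C57BL/6 mice, like most laboratory strains, carry a defective Mx1 allele. Mx1 had 2.97, 4.60 and 12.4 CPM on galactose and 2.73, 4.01 and 6.84 CPM on glucose, and only 2 galactose libraries lay above the highest glucose library. Its log2 difference was 0.30 ± 0.20, and 0.10 without galactose replicate 4. Mx2 had 3.80, 7.77 and 20.3 CPM against 1.68, 4.81 and 9.07 CPM, a difference of 0.77 ± 0.24 (adjusted p = 0.168, edgeR).

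The IFIT proteins bind foreign RNA and block its translation. Ifit3 had 47.3, 90.3 and 264 CPM on galactose and 14.1, 63.7 and 99.0 CPM on glucose. Galactose replicate 4 held the highest value, 3 galactose libraries lay above every glucose library, and the log2 difference was 0.76 ± 0.27. Ifit1 had 0.45 ± 0.21 and Ifit2 0.52 ± 0.28. Without galactose replicate 4 these were 0.30 and 0.20. The near copy Ifit3b, counted apart, had 0.62 ± 0.23.

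ISG15 is a ubiquitin-like protein that is attached to other proteins. Isg15 had 45.6, 102 and 247 CPM on galactose and 15.2, 57.9 and 108 CPM on glucose. On galactose 11 libraries lay above the glucose median and 4 above the highest glucose library. The log2 difference was 0.81 ± 0.26 (adjusted p = 0.185, edgeR). Usp18, the protease that removes ISG15 and restrains the receptor, had 0.76 ± 0.29, and Herc6, the mouse ligase for ISG15, had 0.55 ± 0.24.

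Ubiquitin and ADP-ribose modifiers had the smallest median difference of the roles (0.16), though Irf9 in another role stood below Parp14. Dtx3l and Parp9 encode partners in 1 complex, and their exons share bases on opposite strands. Dtx3l had 96.6, 123 and 199 CPM on galactose and 86.7, 124 and 182 CPM on glucose, a difference of 0.07 ± 0.12 (-0.0024 without galactose replicate 4). Parp14 stood at 0.13 ± 0.12 (0.05 without that library) and Parp9 at 0.19 ± 0.08. Trim30a, a brake on inflammatory signalling, stood apart at 0.60 ± 0.25.

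Among the other effectors, Bst2 (tetherin, which holds budding virus on the cell surface) had 26.0, 46.9 and 109.9 CPM on galactose and 9.38, 24.0 and 48.5 CPM on glucose. All 12 galactose libraries lay above the glucose median, 5 of them above every glucose library. The means were 53.8 ± 21.6 CPM and 28.03 ± 12.5 CPM (SD), a log2 difference of 0.94 ± 0.23 (adjusted p = 0.138, edgeR). Ifi35, an interferon-induced partner of Nmi, had 152, 206 and 252 CPM against 133, 164 and 194 CPM. Its spread was narrow: 9 galactose libraries lay above the highest glucose library, and the difference was 0.35 ± 0.08 (adjusted p = 0.135, edgeR). Xaf1, a promoter of apoptosis, stood at 0.57 ± 0.17, the chaperone gene Rtp4 at 0.51 ± 0.15 and the nuclear body gene Sp100 at 0.41 ± 0.16. Rsad2 (viperin), which makes a chain-terminating nucleotide, stood at 0.48 ± 0.28, and its neighbour Cmpk2, which makes viperin's substrate, at 0.24 ± 0.17. Without galactose replicate 4 these were 0.26 and 0.07. Ifi44 stood at 0.90 ± 0.38 and Lgals3bp, a secreted lectin-binding glycoprotein, at 0.24 ± 0.11.

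**Figure D2:**
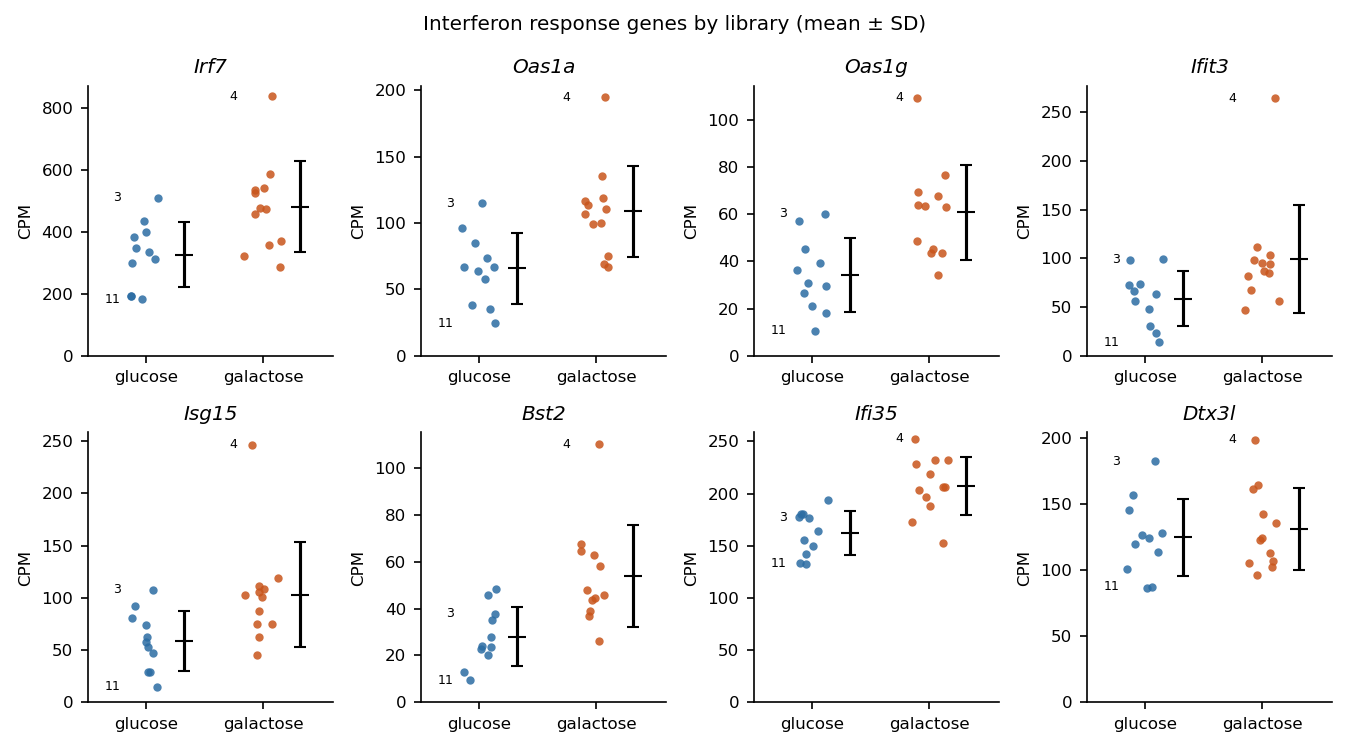
CPM of 8 of the genes in every library (vertical axis, from 0), glucose left and galactose right, with mean ± SD beside the points; replicate numbers mark galactose replicate 4 and glucose replicates 3 and 11. Of the 8 genes, Ifi35 (9) and Oas1g (7) have the most galactose points above every glucose point. The points of Dtx3l overlap over nearly their whole range, and galactose replicate 4 is the highest galactose point in all 8 panels.

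Per kilobase of the longest transcript, the highest level over all 23 libraries was that of Lgals3bp (439 CPM per kilobase), followed by Oasl2 (140.0), Ifi35 (136), Irf7 (126), Isg15 (109) and Oasl1 (108). Mx1 (1.42), Ifit2 (2.21) and Mx2 (2.75) were lowest. In bulk tissue, more cells of a type and more RNA per cell cannot be told apart.

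Mice on the same diet differed widely in these genes. The SD of log2 CPM within diets had a median of 0.55 over the 35 genes, against 0.24 over all genes tested and 0.19 over the 9458 genes at or above the lowest mean level of the 35. It exceeded the median of all genes in 32 of the 35, and the 90th percentile of all genes (0.55) in 16. Ifi44 varied most (1.17), then Oas2 (1.02), Usp18 (0.83), Rsad2 (0.77) and Zbp1 (0.76). In Ifi44, glucose replicate 11 had 1.24 CPM and glucose replicate 3 had 65.5 CPM, a 52.7-fold range, and the galactose libraries spanned 12.01 to 123 CPM. Irf9 (0.17), Ifi35 (0.20) and Parp9 (0.20) varied least and lay below the median of all genes. As a biological coefficient of variation from edgeR, the median was 33.1% for the 35 genes and 15.6% for all genes.

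**Figure D3:**
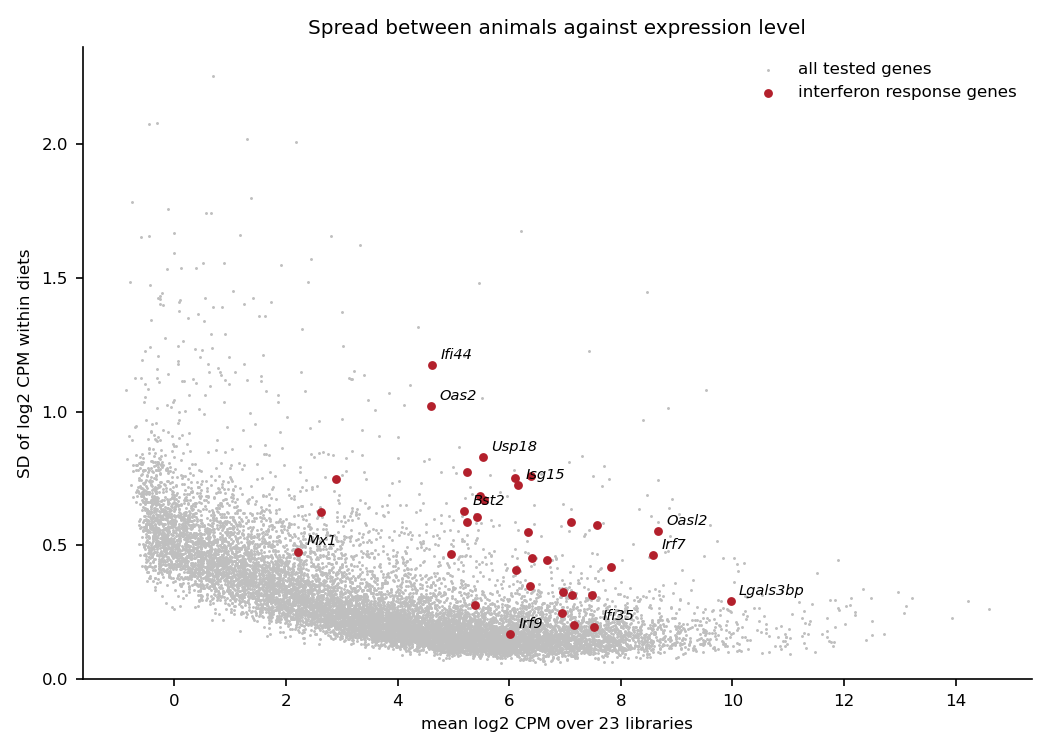
SD of log2 CPM within diets (vertical axis) against mean log2 CPM over 23 libraries (horizontal axis) for all 13405 tested genes in grey and the 35 interferon genes in red. At like expression levels most red points lie above the grey band, with Ifi44 and Oas2 highest and Irf9, Ifi35 and Parp9 inside the band.

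On the log2 scale the spread was larger on glucose than on galactose in 31 of the 35 genes. The median SD was 0.64 on glucose and 0.44 on galactose. Over all genes these medians were 0.23 and 0.24, and 56.1% had the larger SD on galactose. In CPM the SD was larger on galactose in all of the 35 but Irf9, Oasl2, Lgals3bp and Sp100, as in Irf7 (147 against 105 CPM). The difference in spread was not tested on either scale. Glucose replicate 11 was the lowest glucose library in 30 of the 35 genes and glucose replicate 3 the highest in 31. Galactose replicate 4 was the highest galactose library in all 35, and galactose replicates 10 and 5 were the lowest in 18 and 12. The mean log2 CPM over the 35 genes was 6.38 ± 0.41 on galactose (range 5.83 to 7.41) and 5.85 ± 0.57 on glucose (range 4.68 to 6.71). The highest and lowest mouse thus differed 3.00-fold on galactose and 4.11-fold on glucose. By this mean 10 of 12 galactose libraries lay above the glucose median, 1 lay above every glucose library, and 4 glucose libraries lay below every galactose library.

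**Figure D4:**
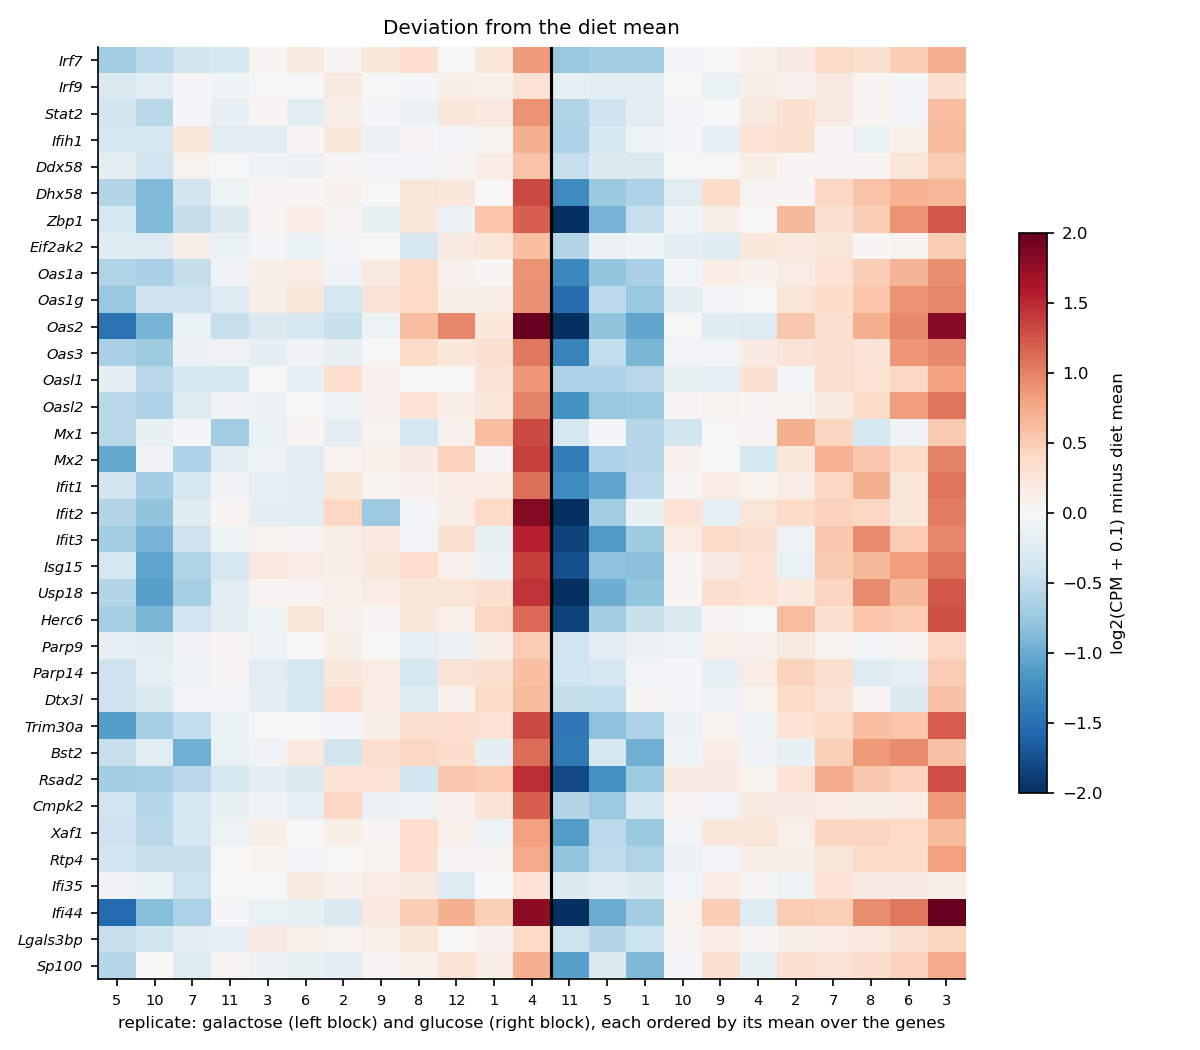
Deviation of each gene (rows) from its diet mean, as log2(CPM + 0.1), in each library (columns), galactose left and glucose right, with libraries ordered by their mean over the genes. Columns are nearly uniform in colour: galactose replicate 4 and glucose replicate 3 are high and glucose replicate 11 is low across almost all rows.

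The 35 genes varied together from mouse to mouse. With diet means removed, Pearson's r over the 23 libraries was positive for all 595 pairs of these genes, with a median of 0.85 (quartiles 0.75 and 0.91). The median over all pairs of tested genes was -0.0035. An r over 0.5 was found in 585 of the 595 pairs (98.3%), and in 3.86% of all pairs. Within galactose the median was 0.82 and within glucose 0.89. The points share library depth and scaling, and the correlations are given as a description. A single axis, the first principal component, held 82.7% of the variance of the 35 standardised genes. The highest r was 0.98, between Oas3 and Oasl2, and the lowest 0.25, between Parp14 and Ifi35.

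**Figure D5:**
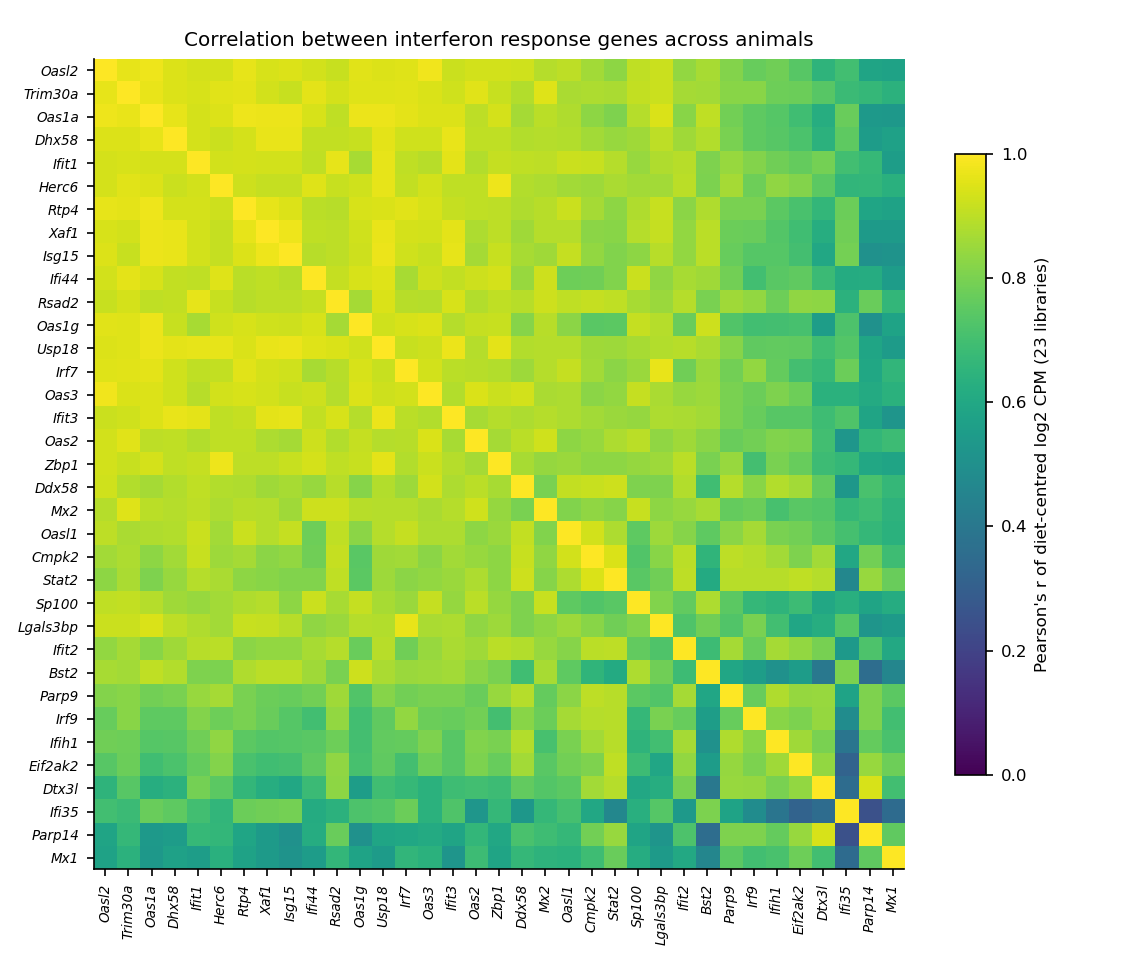
Pearson's r of diet-centred log2 CPM over 23 libraries for each pair of the 35 genes, ordered by each gene's median r with the others. The genes from Oasl2 to Mx2 form a block of mostly high r, while Mx1, Parp14, Ifi35 and Dtx3l at the edge correlate less with the rest.

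Genes of 1 role or locus differed in how closely they correlated, and no test compared them with other pairs. Oas1a and Oas1g had r = 0.97, Isg15 and Usp18 0.97, Ifit1 and Ifit3 0.96, and Rsad2 and Cmpk2 0.91. Mx1 and Mx2 had only 0.65. Dtx3l had 0.85 with its complex partner Parp9 and 0.94 with Parp14. The median r of Parp14 and Dtx3l with the other members was 0.64 and 0.69. Bst2 and Ifi35, which had small p-values between the diets, were less tied to the group in different degrees: their median r with the others was 0.80 and 0.66, and r was 0.80 between them. Mx1 had the lowest median r (0.63).

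Irf7 was taken as the anchor for tests, with Irf7 values permuted within diets (100000 resamples, two-sided). All 34 relations with the other genes passed at an adjusted p under 0.05 over the 34, by Pearson's r and by Spearman's rho. The share of all tested genes that would pass the same test is not given here. Every pair of the interferon genes had a positive r with diet means removed, and 98.3% of pairs had an r over 0.5. The count of relations that passed thus largely restates that co-variation, and a regulating role of Irf7 was not tested. Lgals3bp had r = 0.97 and rho = 0.91 (adjusted p = 1.3e-05 and 1.7e-05, the unadjusted p being the smallest that the permutations can give, 1e-05). Parp14 had the weakest relation, r = 0.60 and rho = 0.49 (adjusted p = 0.0039 and 0.024). Without the 2 libraries whose Irf7 lay farthest from the median, galactose replicate 4 and glucose replicate 11, r ranged from 0.43 for Parp14 to 0.97 for Lgals3bp with a median of 0.86. The relations share the same libraries and the same Irf7 values, so they are not independent of each other.

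Irf7 was set against 18 measures of library quality and cell types by the same test, and 0 passed. For the library total r was 0.09, for the share of reads without a gene -0.18, and for the slope of expression on transcript length 0.02. Markers of plasmacytoid dendritic cells, strong producers of type I interferon, gave r = 0.60 and rho = 0.51 (adjusted p = 0.086 and 0.11 by permutation), and r = 0.51 without the same 2 libraries. Most of that sum is Irf8 (98.2 ± 13.2 CPM on galactose) and Klk1. The defining gene Siglech had 1.18 ± 0.53 CPM on galactose and an r of -0.23 with the mean of the 35 genes. Irf8, which is also on the interferon gamma list, had an r of 0.66 with that mean. Over the 9 tested markers the median r with that mean was 0.07, and 1 of the 9 exceeded 0.5. Markers of T cells and intraepithelial lymphocytes gave r = 0.49 and rho = 0.54 (adjusted p = 0.13 and 0.0996), with r = 0.16 within galactose and 0.74 within glucose, and 0.54 without the 2 libraries. Goblet cell markers gave r = -0.52 and rho = -0.59 (adjusted p = 0.12 and 0.076), with r = -0.78 within galactose, -0.30 within glucose and -0.43 without the 2 libraries. Macrophage and dendritic cell markers gave r = 0.07, and enterocyte markers 0.15.

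Markers of lymphocytes were compared between the diets in the same fit. Of 20 T cell and intraepithelial lymphocyte markers 19 were higher on galactose (median log2 difference 0.46), 10 had an unadjusted p under 0.05, against 14.4% of all genes, and 0 passed. None of the 20 was at 0 in all libraries. Their sum was 238, 336 and 625 CPM on galactose (lowest, median, highest) and 95.7, 266 and 473 CPM on glucose, and glucose replicate 11 was again lowest. Galactose replicate 4, highest of its diet in all 35 interferon genes, held 248 CPM of these markers, below the galactose median. With that sum as a covariate the median over the 35 interferon genes was 0.36, 34 were higher and 14 had an unadjusted p under 0.05, against 4.82% of all genes in that direction. Of 6 tested B and plasma cell markers 5 were higher (median 0.58) and 2 had an unadjusted p under 0.05. Their summed level had a median of 164 CPM on galactose and 163 CPM on glucose, and their median r with the mean of the 35 genes was 0.10. Of 9 tested plasmacytoid dendritic cell markers 8 were higher (median 0.25) and 1 had an unadjusted p under 0.05. Macrophage and dendritic cell markers were higher in 7 of 17 (median -0.04). Markers of some other cells were all lower on galactose: 10 of 10 for Paneth cells (median -0.27) and 8 of 8 for crypt base stem cells (-0.30). So were 8 of 8 for smooth muscle (-0.27) and 7 of 7 for fibroblasts (-0.23). In these lists an unadjusted p under 0.05 was found only for 2 of the 8 crypt base markers. Enterocyte markers were split, with 6 higher and 6 lower (median -0.02). Goblet cell markers had 3 higher and 5 lower (-0.07), and endothelial markers 1 higher and 7 lower (-0.14). None of these markers passed. The summed Paneth markers spanned 422 to 1929 CPM on galactose and 381 to 2313 CPM on glucose, and their part in the interferon result was not tested.

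Other interferon-stimulated genes leaned the same way. Of 65 tested genes on a list of other interferon-stimulated genes 58 were higher on galactose and 7 lower (median log2 difference 0.26). An unadjusted p under 0.05 was found for 28, all of them higher, against 8.63% of all genes tested in that direction, and 0 passed. Parp10 had 48.3 ± 8.40 CPM against 39.5 ± 4.24 CPM (0.29 ± 0.08), Oas1c stood at 0.53 ± 0.16 and the schlafen gene Slfn2 at 0.59 ± 0.18. With diet means removed, 47 of the 65 had an r over 0.5 with the mean of the 35 genes (median r 0.74). The share of all genes with such an r is not given here. Of 16 genes of the interferon gamma list 13 were higher (median 0.31), 6 with an unadjusted p under 0.05, and 1 lower gene, Ido1, also had one. Il18bp, a decoy for interleukin 18, stood at 0.63 ± 0.17 and the GTPase Irgm1 at 0.62 ± 0.22, both with a high r with the mean of the 35 (0.88 and 0.94). Il18 stood at 0.32 ± 0.12 but had an r of only 0.04. Of 22 sensing and adaptor genes 17 were higher (median 0.07). An unadjusted p under 0.05 was found for 2 of the 22, both higher, which is near the 8.63% of all genes. These were Tmem173 (STING, 0.39 ± 0.17) and the RNA editor Adar (0.23 ± 0.11), whose r with the mean of the 35 was 0.93. Adar stood at 0.15 without galactose replicate 4. The adaptor Mavs stood at 0.10 ± 0.05 with an r of 0.06.

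Among genes on none of these lists, those most like the mean of the 35 genes over the 23 libraries, diet means removed, were Spats2l (r = 0.97), H2-T24 (0.94), Gbp6 (0.93), Ifi47 (0.93), Gbp3 (0.93), Tap1 (0.93), Olfr56 (0.89), Gbp7 (0.89), Rnf31 (0.89) and H2-T22 (0.88). They are given as a description, picked for this likeness. Spats2l averaged 34.8 ± 15.6 CPM with galactose and 24.6 ± 10.8 CPM without it. Olfr56 shares exon bases with Ifi47 on the same strand, and Rnf31 with Irf9, so reads from these pairs may not be parted. Gbp3, Gbp6 and Gbp7 are guanylate-binding proteins, and Tap1 is the peptide carrier of class I antigen presentation.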

How the data were processed

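For each of 23 mice the authors deposited raw counts by gene, made with STAR and HTSeq on GRCm39, per the submitters' processing notes. The sources used here give no version, annotation release or strand setting. The 5 rows that name no gene held 13.5% of reads and were left out. Symbols were matched by Ensembl identifier for 52083 of 55416 rows. Groups follow the diet label, and replicate numbers follow accession order. The 121 pairs of libraries within a diet differed by at least 13.2 in chi-square per degree of freedom, so none was a copy.

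Computed here: filterByExpr, TMM scaling and edgeR 4.0.16's quasi-likelihood test (R 4.3.3) with a single term for diet, Benjamini-Hochberg over 13405 genes, threshold 0.05. CPM use TMM-scaled totals. Log2 CPM for spread and correlations use a prior count of 2. Transcript length is the longest in GENCODE M21. The tests were checked on simulated data, with the outcome not given here. For edgeR the simulated counts were drawn for each gene on its own, without the co-variation between genes seen here. DESeq2 1.42.0, limma 3.58.1 and sva 3.50.0 served as alternatives. The members and lists were chosen with earlier results of these data known. Named were all 35 members, the 3 other genes of smallest p per pathway list, and the 10 genes on no list most like the members' mean, unnamed and predicted genes left out. 1 gene that this rule names is not reported here. Further genes are given as background to a list and were chosen after their values were seen.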

Additional observations from a re-analysis of the deposited data

How the results depend on the processing

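Across 35 alternatives, 23 of which leave out 1 library each, the direction of the 35 interferon genes was kept except as follows. With surrogate variables as covariates the log2 difference turned for Zbp1 (-0.0103), Oasl1 (-0.10), Oasl2 (-0.0343), Ifit1 (-0.0655), Ifit2 (-0.00149), Usp18 (-0.00959), Dtx3l (-0.0616), Rsad2 (-0.17), Cmpk2 (-0.14) and Lgals3bp (-0.0647), and for Socs1 (-0.24) outside the group. These variables held 86.8% of the variance of the members' mean within diets, and they were estimated from the same expression values, the members among them. Dtx3l turned to -0.00765 with the T cell level as covariate and to -0.00235 without galactose replicate 4; with 1 library left out it ranged up to 0.137 (without glucose replicate 3).

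Genes called between the diets numbered 0 in the reported fit, 90 by DESeq2 (67 higher, 23 lower), 167 by limma-voom with quality weights (142 higher, 25 lower), 3 with surrogate variables and 0 to 219 when 1 library was left out, the 219 without galactose replicate 7. Of the 35 interferon genes, 2 were called by DESeq2, 6 by quality weights (Oas1a, Oas1g, Bst2, Xaf1, Rtp4 and Ifi35) and 0 to 3 with 1 library left out (Oas1g, Bst2 and Ifi35 without galactose replicate 7). The cause was not tested. With 1 library left out, 34 to 35 genes were higher, the median log2 difference lay between 0.32 (without galactose replicate 4) and 0.61 (without glucose replicate 3), the median SD between 0.48 and 0.57, and the median correlation between 0.82 and 0.86. All 34 relations with Irf7 passed each time. Without galactose replicate 4, 12 of the 35 differences shrank by more than 1.5 times. As the square root of the edgeR dispersion the median spread was 0.33, against 0.16 for all genes, a different scale by construction. By Spearman's measure the median correlation was 0.78.

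No paired analysis was possible because the labels give no replicate numbers shared between the diets. Weakly expressed members such as Mx1 and Ifit2 rest on few counts, and 12 against 11 mice limits the precision of genes that vary this much.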

Other observations

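The interferon lambda genes lay below the filter on low counts, and their counts by library were looked at after the data had been seen. Ifnl2 and Ifnl3 together had 0 to 29 counts per library on galactose (median 4) and 0 to 17 on glucose (median 2). The highest sum, 29 counts (15 of Ifnl2 and 14 of Ifnl3), was in galactose replicate 4, the library with the highest level of all 35 interferon genes on galactose. The next, 17 counts each, were in glucose replicate 3 and galactose replicate 3. Glucose replicate 3 was the highest glucose library by the mean of the 35 genes. Galactose replicate 3 stood at 6.33 by that mean, below the galactose median of 6.38. Glucose replicate 11, the lowest library, had 0, as had 4 glucose libraries in all and 1 galactose library. The order did not hold throughout: glucose replicate 1, among the 3 lowest libraries by the mean of the 35 genes, had 7 counts, and galactose replicate 1, next to the highest on galactose, had 1. The sum correlated with Irf7 within diets at r = 0.54 and rho = 0.54 (unadjusted permutation p = 0.011 and 0.012, as log2(CPM + 0.1), n = 23). This relation was picked after the counts were seen and belongs to no family of tests. Its p-values are thus a description and not a test result. Without the 2 libraries of most distant Irf7, galactose replicate 4 and glucose replicate 11, r was 0.36, and it was 0.44 within galactose and 0.62 within glucose. The sums are very small, and reads may be split between the near-identical copies or counted for neither.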
